A study of Mus musculus with 6 samples.

Results

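The 47 transcripts described here encode enzymes that make or break down amino acids and pyrimidines in the mouse forebrain. They were taken by gene symbol from a list of 47 names covering 6 pathways, and all 47 were found among the 23282 entries of the count tables. The list holds 19 branched-chain, 3 lysine, 6 glutamate, aspartate and alanine, 7 arginine and proline, 8 serine and glycine, and 4 pyrimidine enzymes. RNA-Seq was performed on forebrain tissue of C57BL/6J male wild-type mice, 8 to 10 weeks old, which were fed ad libitum either a normal chow diet (NCD) or a high-fat diet (HFD) with 60% of its energy from fat. Feeding lasted 10 days, each library held forebrain hemisphere RNA without the olfactory bulbs and the cerebellum, and 3 libraries were made per diet. The question asked of these transcripts was whether short-term HFD feeding altered the mRNA of the enzymes behind brain amino acid levels.

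Branched-chain amino acids enter the brain quickly and give their nitrogen to glutamate, after which their carbon skeletons are oxidized in mitochondria. Lysine and pyrimidines are broken down by separate routes, whereas arginine is shared by urea-type hydrolysis and nitric oxide synthesis. Serine and glycine are made from glucose in astrocytes and supply one-carbon units and NMDA receptor co-agonists. In bulk tissue, a lower transcript level from fewer cells of a type and from less RNA per cell cannot be told apart.

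The transcript levels of these enzymes differed little between the diets. Of the 47 members, 42 had enough counts to be tested, and 0 had an adjusted p under 0.05 (Benjamini-Hochberg) in edgeR's quasi-likelihood test across 13771 genes, among which 0 (0%) passed. DESeq2 also called 0 members, and the lowest adjusted p of a member was 0.979. At an unadjusted p under 0.05, 1 member (2.38% of those tested) was counted, the methylmalonyl-CoA epimerase transcript Mcee, against 3.68% of all genes tested. It was higher with HFD, where 1.71% of all genes passed in that direction, and 0 members were counted as lower, where 1.98% passed. The ranges of the 2 diets did not overlap in 4 members (9.52%), against 8.81% of all genes. Pccb and Mcee were higher with HFD, beside a background of 4.31% in that direction, and Gpt and Upb1 were lower, beside 4.49%. Among the members tested, 22 had a positive and 20 a negative log2 fold change (HFD against NCD), with a median of 0.02, while the median over all genes tested was -0.0025.

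The data bound the size of a change for most enzyme transcripts. In 37 of the 42 members the 95% interval of the log2 fold change lay within a 2-fold difference in either direction, as it did in 85.7% of all genes tested. The standard error of the log2 fold change had a median of 0.15 and ran from 0.10 for Got1 to 0.78 for Shmt1. The 5 members with wider intervals were Bcat2, Asl, Shmt1, Dpyd and Upb1, and each of them had a mean below 10 counts per 1000000 counts of the library (CPM, scaled by the trimmed mean of M-values, TMM). For these 5 the data did not bound the difference to within 2-fold. The spread between replicates exceeded counting error for 32 of the 42 members in NCD and for 32 in HFD, with median coefficients of variation of 9.79% and 12.8%.

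**Figure D1:**
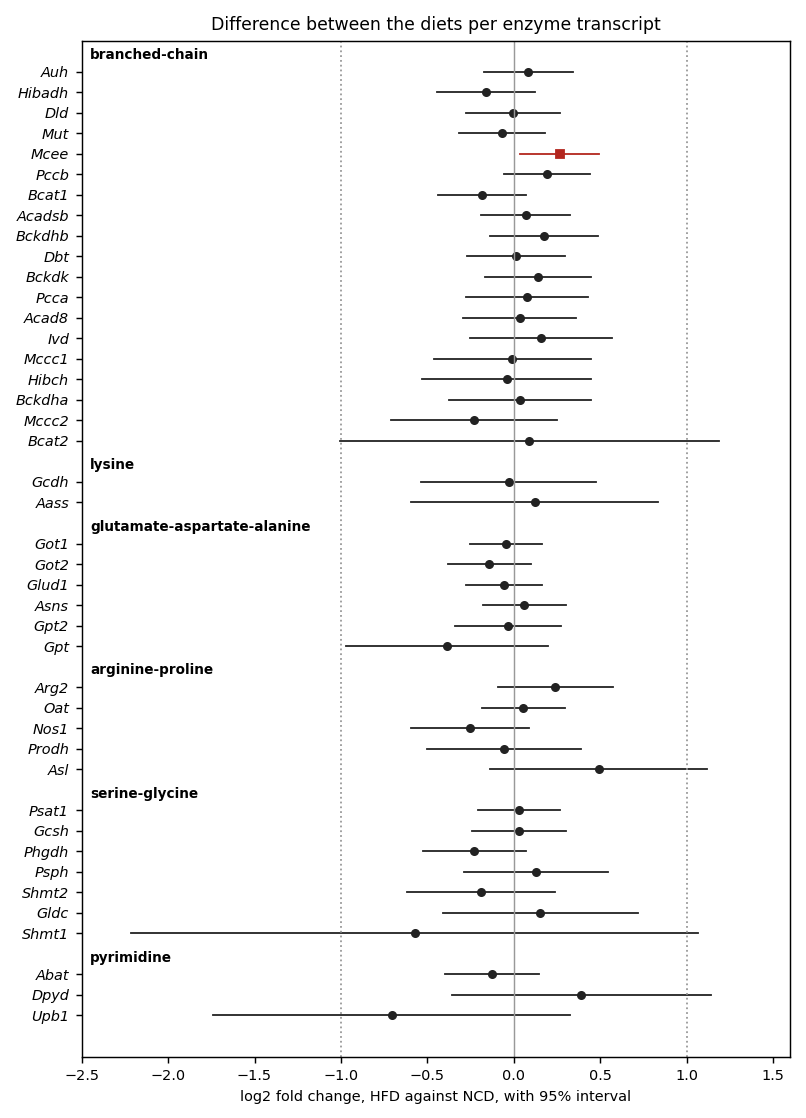
The horizontal axis is the log2 fold change of HFD against NCD with its 95% interval for each of the 42 members tested, grouped by pathway, and the dotted lines mark a 2-fold difference. The interval of Mcee, drawn as a red square, does not include 0, while the 41 black circles have intervals that include it, and 5 intervals cross a dotted line.

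The libraries held between 6842785 and 9689372 counts, and 3 counts corresponded to 0.316 to 0.431 CPM. All 8 forebrain markers were present in the 6 libraries, while the 5 cerebellar markers summed to 112 to 139 CPM, nearly all of it Calb1 and Pcp2, which are also expressed elsewhere in the brain, and Gabra6 had 0 or 1 count. HFD replicate 3 stood apart, with 1274 CPM of pituitary hormone transcripts (7 genes) against 4.74 to 13.6 CPM in the other libraries. The 6 midbrain markers summed to 59.4 to 82.9 CPM in NCD and to 38.8 to 63.8 CPM in HFD, lowest in HFD replicate 3, and 3 of them were lower with HFD at an unadjusted p under 0.05. The 5 blood transcripts summed to 421 to 518 CPM in NCD and to 543 to 823 CPM in HFD, and 4 of them were higher at an unadjusted p under 0.05. A list of 12 liver transcripts summed to 10.1 to 56.0 CPM in NCD and 4.39 to 14.1 CPM in HFD, with 0 of the 12 at 0 counts throughout. With Ttr and Trf added the liver list had 14 genes, of which 7 were tested and 5 were lower at an unadjusted p under 0.05. The part of these differences in the values below was not tested. Leaving out HFD replicate 3 moved the log2 fold changes of the members by -0.67 (Shmt1) to 0.19 (Nos1). HFD replicate 3 was the highest or lowest library for 19 of the 42 members (45.2%), against 53.4% of all genes tested. NCD replicate 3 was so for 18 members (42.9%), against 43.0% of all genes tested. Each of the remaining libraries was so for 22.5% to 28.6% of all genes tested.

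The members together made up 0.209% to 0.231% of the counts of each library. The most abundant were the cytosolic and mitochondrial aspartate aminotransferases Got1 and Got2, glutamate dehydrogenase Glud1, mitochondrial arginase Arg2 and the GABA transaminase Abat, which were the 5 members with a mean above 100 CPM. At the other end, 17 members had a mean below 10 CPM. QuantSeq reads come from the 3′ end of a transcript, so these CPM levels are not divided by transcript length.

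**Figure D2:**
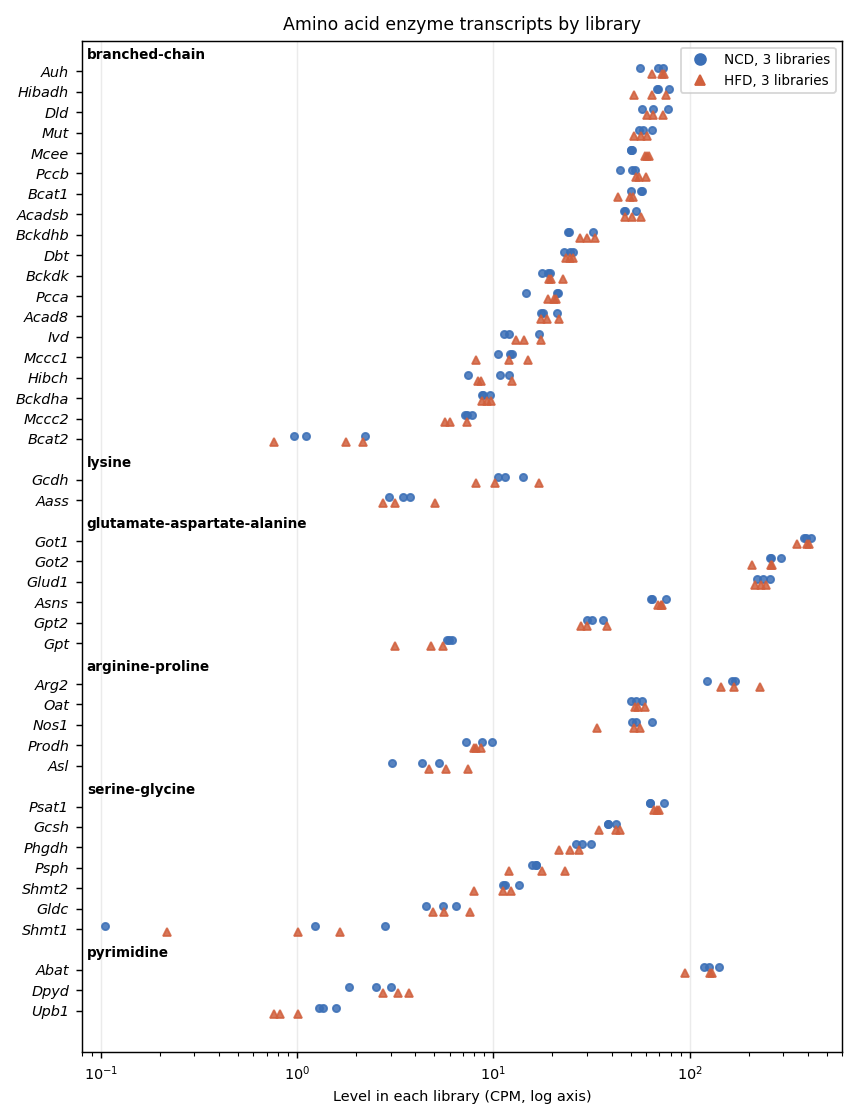
Each point is the level of a transcript in 1 library in CPM on a log axis, with blue circles for the 3 NCD and orange triangles for the 3 HFD libraries, and the 42 members tested are grouped by pathway. Circles and triangles overlap in 38 members, and Shmt1 has the widest spread within both diets.

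The promoter stretches searched held the core of the amino acid response element in 3 members. The transcription factor ATF4, which is translated when amino acids are short, binds an element with the core TGATGNAA in genes such as Asns. This core was sought on both strands of RefSeq promoters of 300 bases (GRCm38.p6, 250 bases before and 50 after the start), of which 40 of the 47 members had at least 1. It was present in 3 of these 40 members (7.5%), against 1219 of 27025 genes (4.51%) and 7 of 15 ATF4 response genes (46.7%). The 3 windows are shown because Asns is the classical target and the other two hold the same letters. Each is on the minus strand and reads 5′ to 3′ with the matching letters in capitals, from chr19:43524669-43524738, chr6:7693210-7693263 and chr11:120643813-120643882 in turn.
Got1: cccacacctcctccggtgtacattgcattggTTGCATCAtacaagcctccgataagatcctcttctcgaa
Asns: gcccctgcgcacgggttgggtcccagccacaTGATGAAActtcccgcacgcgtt
Pycr1: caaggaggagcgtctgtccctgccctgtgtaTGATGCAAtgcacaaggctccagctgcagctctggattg
The match began 102 bases before the start of Got1, 23 before that of Asns and 103 before that of Pycr1, and in Got1 the core lay on the opposite strand. A match describes letters only and does not show binding, and an element outside the bases searched would have been missed.

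Of the 3 genes with the core, 2 were tested, and the diets overlapped in both. Asns, which makes asparagine from aspartate, had 76.0, 64.1 and 63.2 CPM in the 3 NCD libraries and 68.7, 71.2 and 72.1 CPM in the 3 HFD libraries. The HFD libraries fell inside the range of NCD, and the log2 fold change was 0.06 ± 0.11 (SE, n = 3 per diet). Got1 had 417, 390 and 384 CPM with NCD and 398, 406 and 351 CPM with HFD. Pycr1, which forms proline in the last step of its synthesis, had at most 2 counts in a library. Of the 16 ATF4 response genes listed, 11 were tested, 0 passed an unadjusted p of 0.05 in either direction, and their median log2 fold change was 0.0020.

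Branched-chain catabolism begins with a transamination, and the transcript of its cytosolic enzyme was the more abundant in the forebrain. Bcat1, the cytosolic aminotransferase of neurons, had 50.4, 57.5 and 56.4 CPM with NCD and 49.9, 51.4 and 43.2 CPM with HFD. The lowest NCD library lay below the highest HFD library, so the diets overlapped, with a log2 fold change of -0.18 ± 0.12. The mitochondrial isoform Bcat2 had 1.11, 0.969 and 2.21 CPM with NCD and 2.16, 0.764 and 1.78 CPM with HFD, which were 7 to 21 counts. The high and low Bcat2 libraries were found in both diets, and its log2 fold change of 0.09 ± 0.52 left a wide interval. The log2 ratio of Bcat1 to Bcat2 was between 4.53 and 6.07 in the 6 libraries, a level ratio of 23.1 to 67.3.

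The second step, the branched-chain ketoacid dehydrogenase, is the committed one and is switched off by its kinase. Bckdha, the E1 alpha subunit, had 8.75, 9.58 and 8.84 CPM with NCD and 8.77, 9.71 and 9.33 CPM with HFD. These values were nearly the same in both diets, with a log2 fold change of 0.04 ± 0.19. The kinase Bckdk had 19.5, 17.8 and 18.9 CPM with NCD and 19.3, 22.7 and 19.8 CPM with HFD. Its highest library was an HFD library but the diets overlapped, with a log2 fold change of 0.14 ± 0.15. The log2 ratio of Bckdk to Bckdha was 1.05 ± 0.14 with NCD and 1.15 ± 0.07 with HFD (SD, n = 3), which also overlapped. The E1 beta subunit Bckdhb ranged from 23.9 to 32.9 CPM, the E2 core Dbt from 22.9 to 25.5 CPM and the E3 subunit Dld, which also serves the pyruvate complex, from 56.9 to 77.5 CPM over the 6 libraries. The end of Bckdha lies wholly within B3gnt8 on the other strand, a gene with only 2 to 19 counts.

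Leucine carbon passes through Ivd, the carboxylase subunits Mccc1 and Mccc2, and the hydratase Auh. Mccc2 had the lowest log2 fold change of the branched-chain group, with 7.15, 7.75 and 7.36 CPM in NCD and 7.33, 5.67 and 6.04 CPM in HFD. Of the 3 HFD libraries, 2 were below the NCD range, and the log2 fold change was -0.23 ± 0.23. Its partner subunit Mccc1 ranged from 8.18 to 15.1 CPM with its highest and lowest libraries both in HFD. Ivd ranged from 11.3 to 17.5 CPM, and Auh, which held the largest share of the group's summed level, from 56.0 to 73.6 CPM.

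Isoleucine and valine carbon is carried by Acadsb, Acad8, Hibch and Hibadh. Acadsb ranged from 46.1 to 56.3 CPM, Acad8 from 17.4 to 21.6 CPM and Hibch, which frees 3-hydroxyisobutyrate from its coenzyme, from 7.47 to 12.5 CPM, each with overlapping diets. Hibadh, which oxidizes 3-hydroxyisobutyrate, had 69.3, 78.2 and 68.0 CPM with NCD and 52.0, 64.4 and 76.2 CPM with HFD. HFD replicates 1 and 2 were below every NCD library, while HFD replicate 3 was within their range. Hibadh had an unadjusted p of 0.243 with all libraries and 0.022 without HFD replicate 3, when the log2 fold change was -0.30 and 3.17% of 14159 genes passed that level.

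The propionyl-CoA end of the pathway held the member with the lowest p. Mcee, on chromosome 7 (chr7:64392607-64412125, plus strand, GRCm38), encodes the epimerase that hands methylmalonyl-CoA to the mutase. Its level was 50.7, 50.5 and 50.3 CPM with NCD and 60.9, 59.2 and 61.9 CPM with HFD. All 3 HFD libraries were higher than all 3 NCD libraries, which were almost equal to each other. The log2 fold change was 0.27 ± 0.11, with a 95% interval of 0.04 to 0.49, an unadjusted p of 0.026 and an adjusted p of 0.979 by edgeR's quasi-likelihood test. Mcee therefore did not pass the correction. The coefficient of variation among the NCD libraries was 0.366%, below the 4.71% that counting error alone gives. Across the alternative settings the unadjusted p ran from 0.025 to 0.064 and the adjusted p from 0.839 to 1.0. The unadjusted p of Mcee was 0.064 without NCD replicate 1, 0.064 without NCD replicate 2, 0.061 without HFD replicate 1 and 0.052 without HFD replicate 2.

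The neighbouring steps showed smaller or opposite differences. Pccb, the beta subunit of propionyl-CoA carboxylase (chr9:100982032-101034898, minus strand), had 52.4, 50.6 and 44.2 CPM with NCD and 55.5, 53.0 and 59.7 CPM with HFD. The lowest HFD library was just above the highest NCD library, with a log2 fold change of 0.19 ± 0.12 and an unadjusted p of 0.121. Its alpha subunit Pcca had 21.4, 21.1 and 14.6 CPM with NCD and 20.3, 20.9 and 18.9 CPM with HFD, in which the diets overlapped. The end of Pcca shares sequence with Ggact on the other strand, and the ratio of the 2 genes varied by 10.5% over the libraries, where counting error gives 10.02%. The mutase Mut, which follows Mcee, ranged from 51.8 to 64.6 CPM with its highest library in NCD and its lowest in HFD. The log2 ratio of Mcee to Mut was -0.22 ± 0.12 with NCD and 0.11 ± 0.08 with HFD (SD, n = 3), without overlap, and this pair was chosen after the values of Mcee had been seen.

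**Figure D3:**
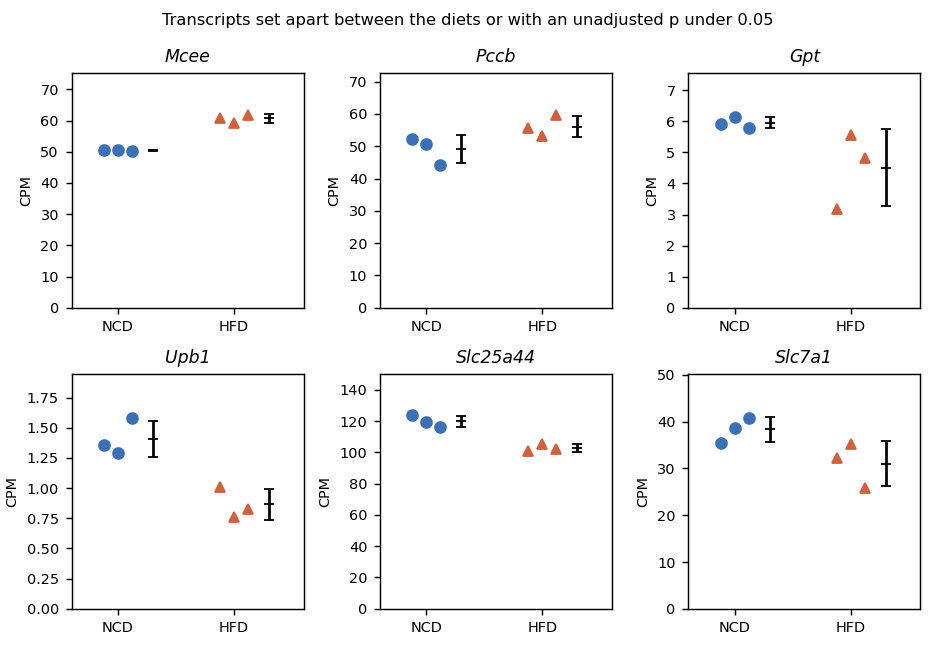
The vertical axes give the level in CPM of 4 members and 2 carriers, with blue circles for the 3 NCD and orange triangles for the 3 HFD libraries, and the black marks show the mean and SD. Mcee and Pccb are higher in each HFD library, Gpt, Upb1, Slc25a44 and Slc7a1 are lower, and the gap is widest relative to the spread for Mcee and Slc25a44.

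The summed level of the 19 branched-chain transcripts was 628 ± 35.7 CPM with NCD and 642 ± 28.6 CPM with HFD (SD, n = 3). Of the 19, 12 had a positive and 7 a negative log2 fold change, with a median of 0.04. Outside the members, Slc25a44, the mitochondrial carrier of branched-chain amino acids, had 124, 119 and 117 CPM with NCD and 101, 106 and 102 CPM with HFD. All HFD libraries were lower, with a log2 fold change of -0.22 ± 0.10, an unadjusted p of 0.044 and an adjusted p of 0.979 by edgeR's quasi-likelihood test. Its unadjusted p ran from 0.030 to 0.134 across the alternative settings. Slc25a44 was the only one of the 18 other branched-chain genes tested with an unadjusted p under 0.05, and the median of these 18 was -0.02.

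Lysine is degraded through a saccharopine and a pipecolate route that converge, and the members include enzymes of the first route and of the shared part. Aass, the bifunctional enzyme of the first 2 steps of the saccharopine route, had 3.45, 3.77 and 2.95 CPM with NCD and 3.16, 5.02 and 2.74 CPM with HFD. Both its highest and its lowest library were HFD libraries, with a log2 fold change of 0.12 ± 0.34. Aadat, the aminoadipate aminotransferase, had 0, 0 and 1 count with NCD and 0, 2 and 0 counts with HFD, below the floor of 3 counts. Gcdh, the glutaryl-CoA dehydrogenase, had 11.5, 10.6 and 14.1 CPM with NCD and 8.19, 10.1 and 17.2 CPM with HFD. HFD replicates 1 and 2 were the lowest and HFD replicate 3 the highest of all, and the log2 fold change was -0.03 ± 0.24, and -0.38 without HFD replicate 3.

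The sum of the 3 lysine transcripts was 15.5 ± 1.49 CPM with NCD and 15.5 ± 4.27 CPM with HFD, of which Gcdh held 77.0%. Without HFD replicate 3 the mean of HFD was 13.4 CPM. Of the 12 other lysine genes tested, 7 had a positive and 5 a negative log2 fold change, with a median of 0.08. Slc7a1, a plasma membrane carrier of cationic amino acids such as lysine and arginine, had 35.5, 38.8 and 40.8 CPM with NCD and 32.2, 35.1 and 25.8 CPM with HFD. Its HFD libraries were all lower than its NCD libraries, the nearest by a narrow margin. The log2 fold change of Slc7a1 was -0.30 ± 0.14, with an unadjusted p of 0.044 and an adjusted p of 0.979 by edgeR's quasi-likelihood test. Without HFD replicate 3, its lowest library, the log2 fold change was -0.19 and the unadjusted p 0.153, the highest of the alternative settings, and without HFD replicate 2 they were -0.41 and 0.024, the lowest.

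Glutamate, aspartate and alanine are exchanged through aminotransferases that feed the malate-aspartate shuttle and the glutamate pool. Got2, the mitochondrial aspartate aminotransferase, had 259, 256 and 291 CPM with NCD and 260, 264 and 207 CPM with HFD. HFD replicate 3 was the lowest library for Got1, Got2 and Glud1, whereas HFD replicates 1 and 2 were within the NCD range for all 3. Got2 had a log2 fold change of -0.14, and -0.04 without HFD replicate 3. The log2 ratio of Got1 to Got2 stayed between 0.40 and 0.76. Glud1, which releases ammonia from glutamate, ranged from 215 to 258 CPM.

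Alanine aminotransferase showed the lowest log2 fold change of this group. Gpt, the cytosolic form (chr15:76695716-76699686, plus strand), had 5.92, 6.14 and 5.79 CPM with NCD and 3.16, 5.56 and 4.804 CPM with HFD. The NCD libraries were close together, and HFD replicate 2 was just below them. The log2 fold change was -0.38 ± 0.28 (unadjusted p = 0.182). Without HFD replicate 1, the library with 22 counts of Gpt, it was -0.19. The mitochondrial form Gpt2, the more abundant in every library with a log2 ratio to Gpt of 2.29 to 3.25, had 31.7, 29.9 and 36.4 CPM with NCD and 30.0, 27.9 and 38.0 CPM with HFD. The NCD range of Gpt2 lay inside its HFD range.

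The summed level of the 6 transcripts was 1011 ± 38.4 CPM with NCD and 965 ± 67.3 CPM with HFD, with Got1 holding 39.6%, and the mean of HFD was 1004 CPM without HFD replicate 3. Of the 6, 1 had a positive and 5 a negative log2 fold change, with a median of -0.05. The 13 other glutamate and aspartate genes tested had 2 positive and 11 negative log2 fold changes, with a median of -0.11. Of these 13, 0 had an unadjusted p under 0.05. Over all genes tested, 6802 log2 fold changes were positive and 6969 negative. The signs of these lists were not tested as a set.

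Arginine is hydrolysed by Arg2, oxidized to nitric oxide by Nos1 and remade from citrulline by Ass1 and Asl. Arg2 (chr12:79130777-79156301, plus strand) had 165, 171 and 122 CPM with NCD and 144, 169 and 228 CPM with HFD. Its highest library was HFD replicate 3 and its lowest NCD replicate 3, with the others between them. For Arg2 the log2 fold change was 0.24 ± 0.16 (unadjusted p = 0.146), and it was 0.04 without HFD replicate 3, 0.10 without NCD replicate 3 and 0.38 without HFD replicate 1, when the unadjusted p was 0.028.

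The counts of Arg2 may share reads with those of Vti1b, a SNARE gene on the other strand, so a difference in Arg2 alone cannot be read from them. The last 400 bases of Arg2 hold 351 different stretches of 50 bases, and 236 of these are also in Vti1b. Vti1b had 233, 232 and 185 CPM with NCD and 203, 237 and 325 CPM with HFD, so its libraries stood in nearly the same proportions as those of Arg2. The ratio of Arg2 to Vti1b was between 0.661 and 0.738, a coefficient of variation of 3.55%, where counting error alone gives 3.57%. Over the same libraries Arg2 varied 1.87-fold and Vti1b 1.76-fold. The use of strand in the counting was not given in the sources used here, and whether reads were counted for both genes was not tested. For Bckdha, whose end lies wholly within B3gnt8, the counts were unlike, with 61 to 89 for Bckdha and 2 to 19 for B3gnt8.

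**Figure D4:**
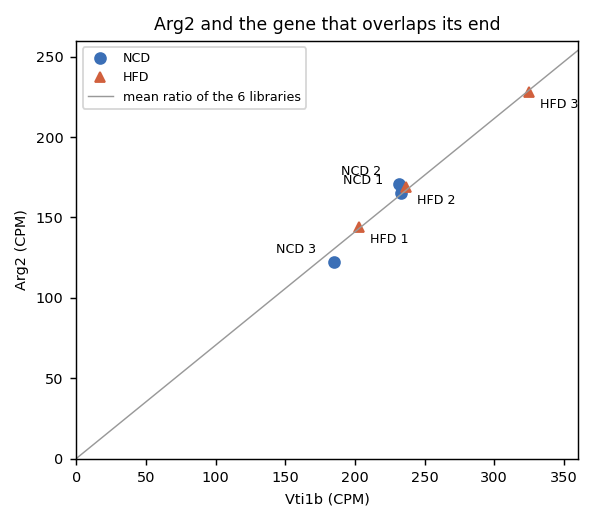
The axes give the level of Arg2 against that of Vti1b in CPM in each of the 6 libraries, with blue circles for NCD and orange triangles for HFD, and the line is their mean ratio. The points lie along the line from NCD replicate 3 at the low end to HFD replicate 3 at 325 CPM of Vti1b.

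Nos1, the neuronal nitric oxide synthase, had 50.9, 53.4 and 64.6 CPM with NCD and 52.2, 55.8 and 33.6 CPM with HFD. HFD replicate 3 was far below the other 5 libraries, and replicates 1 and 2 of HFD were within the NCD range. The log2 fold change was -0.25 ± 0.16 with all libraries, -0.06 without HFD replicate 3 and -0.39 without HFD replicate 2, when the unadjusted p was 0.047. Asl, the argininosuccinate lyase, had 4.31, 5.28 and 3.05 CPM with NCD and 5.75, 4.69 and 7.41 CPM with HFD. Of the HFD libraries, 2 were above every NCD library, and the log2 fold change of 0.49 ± 0.30, the highest of the members tested, had an unadjusted p of 0.118. It was 0.30 without HFD replicate 3.

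Ass1, the step before Asl, had 2, 0 and 1 count with NCD and 0, 1 and 5 counts with HFD. Its near-identical copy Gm5424 had 64 to 97 counts with NCD and 70 to 104 counts with HFD, and 370 of the 1076 stretches of 50 bases at the ends of Ass1 are in Gm5424, so reads of the 2 genes may have been split between them. The proline enzymes Oat and Prodh ranged from 50.1 to 58.9 CPM and from 7.26 to 9.86 CPM with overlapping diets. Pycr1 had 0, 1 and 1 count with NCD and 1, 2 and 0 counts with HFD. The summed level of the 7 transcripts was 276 ± 21.7 CPM with NCD and 298 ± 32.2 CPM with HFD, and without Arg2 it was 123 ± 5.39 and 117 ± 11.2 CPM. The direction of the sum therefore rested on Arg2, and both sums overlapped between the diets. Of the 16 other arginine and proline genes tested, 0 had an unadjusted p under 0.05, with a median of -0.01.

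Serine is made in 3 steps by Phgdh, Psat1 and Psph. Phgdh, which commits glycolytic carbon to this route, had 28.2, 31.5 and 26.5 CPM with NCD and 21.6, 27.2 and 24.7 CPM with HFD. HFD replicates 1 and 3 were below every NCD library and HFD replicate 2 was within their range. The log2 fold change was -0.23 ± 0.14 (unadjusted p = 0.124). The ends of Phgdh transcripts share stretches with several processed copies, so its counts are uncertain. Psat1 ranged from 62.9 to 73.7 CPM, with both extremes in NCD. Psph ranged from 12.1 CPM in HFD replicate 1 to 23.2 CPM in HFD replicate 3, while its NCD libraries lay between 15.7 and 16.5 CPM.

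Glycine is formed from serine by Shmt1 in the cytosol and Shmt2 in mitochondria and is split by the cleavage system of Gldc, Amt, Gcsh and Dld. Shmt1 had 1.23, 2.80 and 0.105 CPM with NCD and 1.01, 0.218 and 1.65 CPM with HFD, which were 1 to 26 counts. The libraries of each diet spread so widely that the log2 fold change of -0.57 ± 0.78 was not distinguishable from 0. Smcr8, which overlaps the end of Shmt1 on the other strand, varied only 1.44-fold. Shmt2 ranged from 7.96 to 13.4 CPM. Gldc, the decarboxylase, had 5.55, 4.52 and 6.42 CPM with NCD and 5.61, 7.64 and 4.94 CPM with HFD, where the diets overlapped and the log2 fold change was 0.15 ± 0.27. Amt had 2, 1 and 2 counts with NCD and 3, 1 and 0 counts with HFD, while the carrier protein Gcsh ranged from 34.6 to 44.3 CPM. The summed level of the 8 transcripts was 170 ± 5.89 CPM with NCD and 168 ± 9.41 CPM with HFD. Of the 22 other serine, glycine and one-carbon genes tested, 0 had an unadjusted p under 0.05, with a median of -0.02.

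Uracil is degraded to beta-alanine by Dpyd, Dpys and Upb1 in turn, and the transcripts of all 3 were scarce. Dpyd had 1.85, 3.01 and 2.52 CPM with NCD and 3.74, 3.27 and 2.74 CPM with HFD. Of its HFD libraries, 2 were above every NCD library, with a log2 fold change of 0.39 ± 0.35. Dpys had 6, 7 and 0 counts with NCD and 4, 8 and 9 counts with HFD, too few to be tested. Upb1 (chr10:75401115-75441679, plus strand) had 1.36, 1.29 and 1.58 CPM with NCD and 1.01, 0.764 and 0.824 CPM with HFD, which were 11, 12 and 15 counts and 7, 7 and 6 counts. All HFD libraries were lower, and its log2 fold change of -0.71 ± 0.49, the lowest of the members tested, had an unadjusted p of 0.167 and a 95% interval of -1.74 to 0.33. The unadjusted p ran from 0.020 to 0.331 across the alternative settings, and the lowest came from quantile normalization with limma. Upb1 is abundant in liver, and the 12 liver transcripts given above summed to 10.1 to 56.0 CPM in NCD and 4.39 to 14.1 CPM in HFD, with overlap. Within each diet the libraries of Upb1 varied less than counting error gives (10.7% against 28.3% in NCD, 14.6% against 38.8% in HFD). The order of the Upb1 libraries therefore cannot be compared with that of the liver sum. The part of liver transcripts in the level of Upb1 was not tested.

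Abat, which breaks down GABA and beta-alanine, had 118, 125 and 140 CPM with NCD and 130, 127 and 94.2 CPM with HFD and made up 96.3% of the summed pyrimidine level. HFD replicate 3 was the lowest, and the other two HFD libraries were within the NCD range. The summed level was 132 ± 11.6 CPM with NCD and 122 ± 20.02 CPM with HFD, and the mean of HFD was 134 CPM without HFD replicate 3. Abat itself had a log2 fold change of -0.13 with all libraries and 0.0074 without HFD replicate 3. Of the 13 other pyrimidine genes tested, 0 had an unadjusted p under 0.05, with a median of 0.01.

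**Figure D5:**
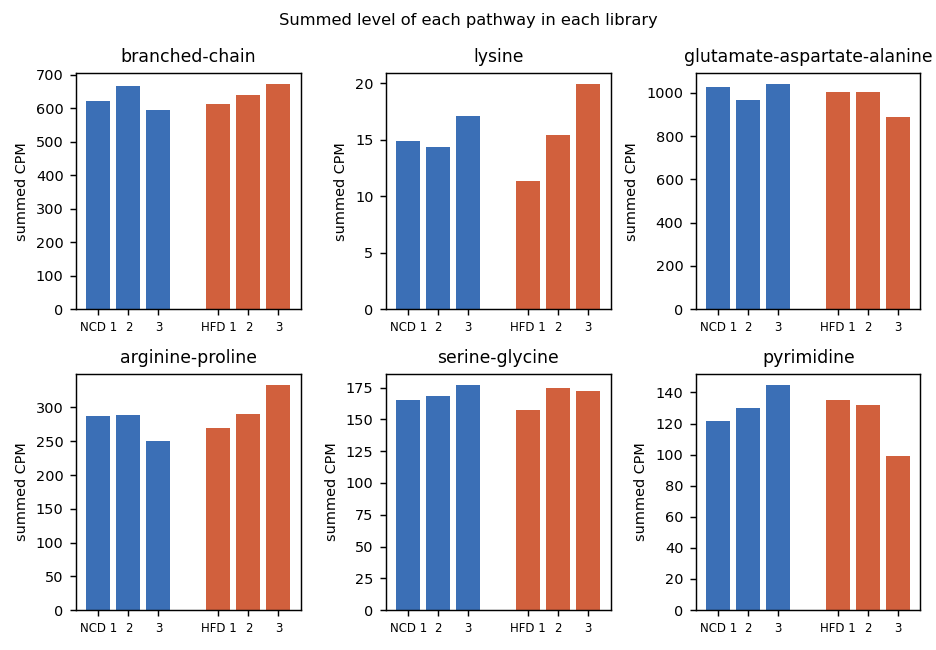
The bars give the summed CPM of the members of each pathway in each of the 3 NCD (blue) and 3 HFD (orange) libraries, with axes from 0. The diets overlap in all 6 pathways, and HFD replicate 3 is the highest library for branched-chain, lysine and arginine-proline and the lowest for glutamate-aspartate-alanine and pyrimidine.

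Beyond the members, 120 further genes of these pathways and of the ATF4 response were listed, and 105 were tested. At an unadjusted p under 0.05, 0 were higher and 2 lower (1.90%, Slc25a44 and Slc7a1), against 3.68% of all genes tested, and 0 passed after adjustment by edgeR's quasi-likelihood test or DESeq2. The diets did not overlap in 15 of the 105 (14.3%), against 8.81% of all genes tested. Of the 15, 7 were higher and 8 lower with HFD. Without HFD replicate 3 the share was 18 of 107 (16.8%), against 18.4% of all genes tested. With any other library left out the share was 22.6% to 27.1%, against 18% to 20.4% of all genes tested. Over the 105 genes the median log2 fold change was -0.02.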

How the data were processed

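The authors prepared QuantSeq 3′ libraries, trimmed the reads, aligned them to mm10 with Bowtie2 and deposited a table of counts per gene for each library, in which bedtools counted both unique and multiple alignments. The annotation and the use of strand were not given in the sources used here. These deposited counts are unnormalized whole numbers. edgeR 4.0.16 (R 4.3.3) with filterByExpr (minimum count 10, minimum total 15), TMM, glmQLFit and glmQLFTest gave two-sided p-values, adjusted by Benjamini-Hochberg over 13771 genes. The common biological coefficient of variation was 0.126, and each standard error is the estimate over the root of its F statistic. A further 5165 genes had counts but were not tested. Floors of counts cover counting error only, whereas the 95% intervals of fold changes include the spread between libraries. The labels do not tie libraries to separate animals, so p-values measure the spread between these libraries, which may be technical.

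The members, pathways and lists were chosen with earlier results of these data known. Values per library are given for members with an unadjusted p under 0.05, members whose diets do not overlap, the highest and lowest log2 fold change of each pathway, members with counts under the filter, the entry and regulatory enzymes and pathway genes with an unadjusted p under 0.05. Other members shown per library were chosen after their values were seen. On simulated counts with 200 genes changed 2-fold edgeR recovered 162 with 9 false calls. Smaller changes and an outlying library were not simulated, so this share does not apply to them. Alternatives were DESeq2 1.42.0, limma 3.58.1 on quantile-normalized log2(CPM + 1), no filter, a minimum of 10 counts in every library, scaling by upper quartile or by library size only, a block for the replicate number, and leaving out 1 library at a time. Gene positions and transcript ends come from GENCODE vM21. Figures were made with Python 3.11.15 and matplotlib 3.10.9. The metabolite data were not analysed here.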

Additional observations from a re-analysis of the deposited data

How the results depend on the processing

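In all 13 alternatives 0 members passed an adjusted p of 0.05. The number of members with an unadjusted p under 0.05 was 1 with all libraries, 2 with no filter (Mcee and Arg2), 2 with quantile normalization and limma (Mcee and Upb1), and 0 to 2 when 1 library was left out: 0 without NCD replicate 1 or 2, and 2 without HFD replicate 3 (Mcee and Hibadh). Of all genes tested, 3.68% passed with all libraries, 4.76% with no filter, 4.26% with limma and 2.95% to 5.46% with 1 library left out. Members whose diets did not overlap numbered 4 in the settings that kept all libraries, with 1 exception. With a minimum of 10 counts in every library they were 3 of 39 (7.69%), against 8.7% of all genes tested. When 1 library was left out they numbered 7 to 9, since fewer libraries have to stand apart. These were 16.7% to 21.4% of the members, against 18% to 20.4% of all genes tested. Among the other pathway genes, 2 had an unadjusted p under 0.05, against 1 with DESeq2, 1 with no filter, 0 with the replicate block and 1 to 3 with 1 library left out. Same-numbered libraries did not deviate together (r of -0.03, 0.05 and -0.06, and not every library correlated best with its own number). With 3 libraries per diet these correlations cannot exclude a batch tied to the replicate number. In the paper's read quality reports, replicate 3 had the highest GC content in both diets. The replicate block changed no other call. With no filter the median log2 fold change was 0.24 for arginine and proline (0.05 with the filter) and 0.13 for pyrimidines (-0.13 with it), because scarce members entered. The sign of the log2 fold change was followed for 21 of the named genes, and 15 of these kept it in all alternatives. The sign turned in 11 of 270 fits, each with 1 library left out, where Aass ranged from -0.20 to 0.29, Gcdh from -0.38 to 0.17, Gldc from -0.061 to 0.28, Shmt1 from -1.24 to 0.52 and Bcat2 from -0.20 to 0.56, and Bckdha from -0.0016 to 0.0785. Hibadh, Got2 and Abat were not among these 21. The log2 fold change of Abat turned from -0.13 to 0.0074 without HFD replicate 3. The cause of these turns was not tested. Leaving HFD replicate 3 out of the summed CPM was chosen after the data were seen. The 5 members under the filter had at most 9 counts in a library, too few for a comparison.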
